A study of Homo sapiens with 12 samples.

Results

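The genes described here are 51 translation initiation, elongation and termination factors, taken as a named set of symbols and matched to Ensembl IDs. All 51 were found among the 60662 genes of the RNA count files and among the 12224 genes of the series' translation efficiency table. The study used HEK293T, a human embryonic kidney cell line of wild-type genotype, and compared cells given STM2457 at 20 µM, a small molecule that blocks METTL3, the enzyme that writes m6A into mRNA, with cells given the solvent alone, each for 6 h. Both arms carried 0.2% DMSO, both received 10% extra serum for the final 1 h, and both were exposed to cycloheximide, a drug that stops elongating ribosomes, at 100 µg/ml for 3 min just before lysis. RNA-seq on poly(A) RNA was made from 4 libraries per arm and ribosome profiling (Ribo-seq) of 26 to 34 nt footprints from 2 per arm. Nothing in the labels says that the replicates were separate cultures, so each p-value reflects variation among libraries that may be purely technical.

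Translation begins when eIF2 delivers the initiator tRNA to a small ribosomal subunit that carries eIF1, eIF1A and eIF3, and when eIF4F, made of the cap-binding protein eIF4E, the scaffold eIF4G and the helicase eIF4A, recruits that subunit to the mRNA cap. The exchange factor eIF2B recharges eIF2 with GTP after each round. Elongation is driven by eEF1A with its exchange factors, by eEF2 and by eIF5A, and termination by eRF1 and eRF3, after which ABCE1 splits the ribosome. Many mRNAs of the translation machinery are TOP mRNAs: they begin at the cap with a C followed by an unbroken run of pyrimidines, and their translation follows the activity of the kinase complex mTORC1, through eIF4E-binding proteins and LARP1. Of the 51 members, 10 were taken as known TOP mRNAs (EEF1A1, EEF1B2, EEF1D, EEF1G, EEF2, EIF3E, EIF3F, EIF3H, EIF4B and PABPC1), and the other 41 served as their contrast.

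The sequences below show the annotated starts of some members, on and off the TOP list, with and without a pyrimidine tract. Each is 15 bases before and 15 bases from the RefSeq start, 5′ to 3′ on the gene's strand, with the pyrimidine tract that opens at the start in capitals (GRCh38.p14, RefSeq). The first 5 are known TOP members, EEF1G is a known TOP member without a tract at its annotated start, EIF3M has a tract although it is not on the TOP list, and EIF2B3 is shown as a member with neither. They lie at chr6:73521018-73521047 (minus strand) for EEF1A1, chr2:206159880-206159909 (plus strand) for EEF1B2, chr19:3985449-3985478 (minus strand) for EEF2, chr11:7987322-7987351 (plus strand) for EIF3F, chr12:53006441-53006470 (plus strand) for EIF4B, chr11:62573877-62573906 (minus strand) for EEF1G, chr11:32583816-32583845 (plus strand) for EIF3M and chr1:44986581-44986610 (minus strand) for EIF2B3.
EEF1A1: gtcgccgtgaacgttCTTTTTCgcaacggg
EEF1B2: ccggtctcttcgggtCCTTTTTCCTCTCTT
EEF2: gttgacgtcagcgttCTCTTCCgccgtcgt
EIF3F: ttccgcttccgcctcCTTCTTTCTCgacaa
EIF4B: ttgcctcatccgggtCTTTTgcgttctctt
EEF1G: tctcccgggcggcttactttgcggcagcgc
EIF3M: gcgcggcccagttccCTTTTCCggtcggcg
EIF2B3: attgggctgtcagtcagaggcggcgtggag

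A tract was counted where the first base of the start was a C followed by at least 4 pyrimidines (C or T), read on the gene's strand only. The tract of EEF1B2 ran to 16 bases, 1 more than the window shows, and that of EIF4B was 5 bases long. RefSeq promoters were found for 41 of the 51 members, and 11 of these had a tract at a start. They comprised 5 of the 6 known TOP members and 6 of the 35 others, against 4.07% of all 35116 starts of the table and 5.14% of its 27305 genes counted the same way as the members. The 6 others were EIF2A, EIF2S3, EIF3D, EIF3K, EIF3M and EIF4A2. When the tract could open anywhere within 10 bases of the start, 5 of 6 known TOP members and 19 of 35 others had one at any of their starts. The share of all starts was 33.5%, counted per start, and the share per gene was not counted for this search. An annotated start need not be the one used in these cells, and a match describes the letters only.

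The RNA-seq libraries held 43112223 to 51425432 gene counts each, and ERCC spike-in RNA made up 0.389% to 0.466% of the counts, with the highest share in STM2457 replicate 4. The Ribo-seq libraries held 4711513 and 3198063 reads in DMSO and 4039314 and 3898620 in STM2457, recovered from the normalized table. All 4 HEK293 markers examined were detected, of which PAX2 was the lowest at 168 to 301 counts per library, and PTPRC of blood cells, ALB of hepatocytes and CDH5 of endothelium reached at most 7 counts in any library. RNA was scaled with TMM, which sets the typical gene of each library to the same level. Scaling to the spike-in total instead moved the median log2 change of all 17807 tested genes from 0.003 to -0.19, so the small changes below are relative to the typical gene, and the log2 change on the spike-in scale (spike-in value) is given beside them. What moved the spike-in median was not tested, and in these bulk samples fewer cells and less RNA per cell cannot be told apart.

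Translation factor mRNAs changed by small amounts in both directions after METTL3 inhibition, and 7 of the 9 tested known TOP mRNAs rose on the TMM scale, against 0 on the spike-in scale. EEF1A1, the elongation factor that brings tRNAs to the ribosome, rose by 0.25 on the log2 scale, and the scaffold subunit EIF3A rose by 0.36, whereas 3 of the 5 eIF2B subunits fell, EIF2B3 by 0.30. Of the 50 members that passed the filter on low counts, 17 were higher and 11 lower with STM2457 (edgeR quasi-likelihood test, Benjamini-Hochberg adjusted p under 0.05), beside 26.2% higher and 21.6% lower of all genes tested. As shares of the members these are 34% and 22%, above the background on the higher side and level with it on the lower. Among the known TOP members 7 of 9 rose and 0 fell, with a median log2 change of 0.12, while of the others 10 of 41 rose and 11 fell, with a median of 0.005 against 0.003 for all genes. The tenth known TOP member, EEF1G, had 0 counts and was not tested. On the spike-in scale only EIF3A was higher (0.16, adjusted p = 0.0133) and 31 members were lower, beside 12.1% higher and 47.1% lower of all genes, and the medians were -0.072 for TOP, -0.19 for the others and -0.19 for all genes. The gap between the TOP median and that of the others was 0.12 with TMM and 0.12 with spike-ins.

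**Figure D1:**
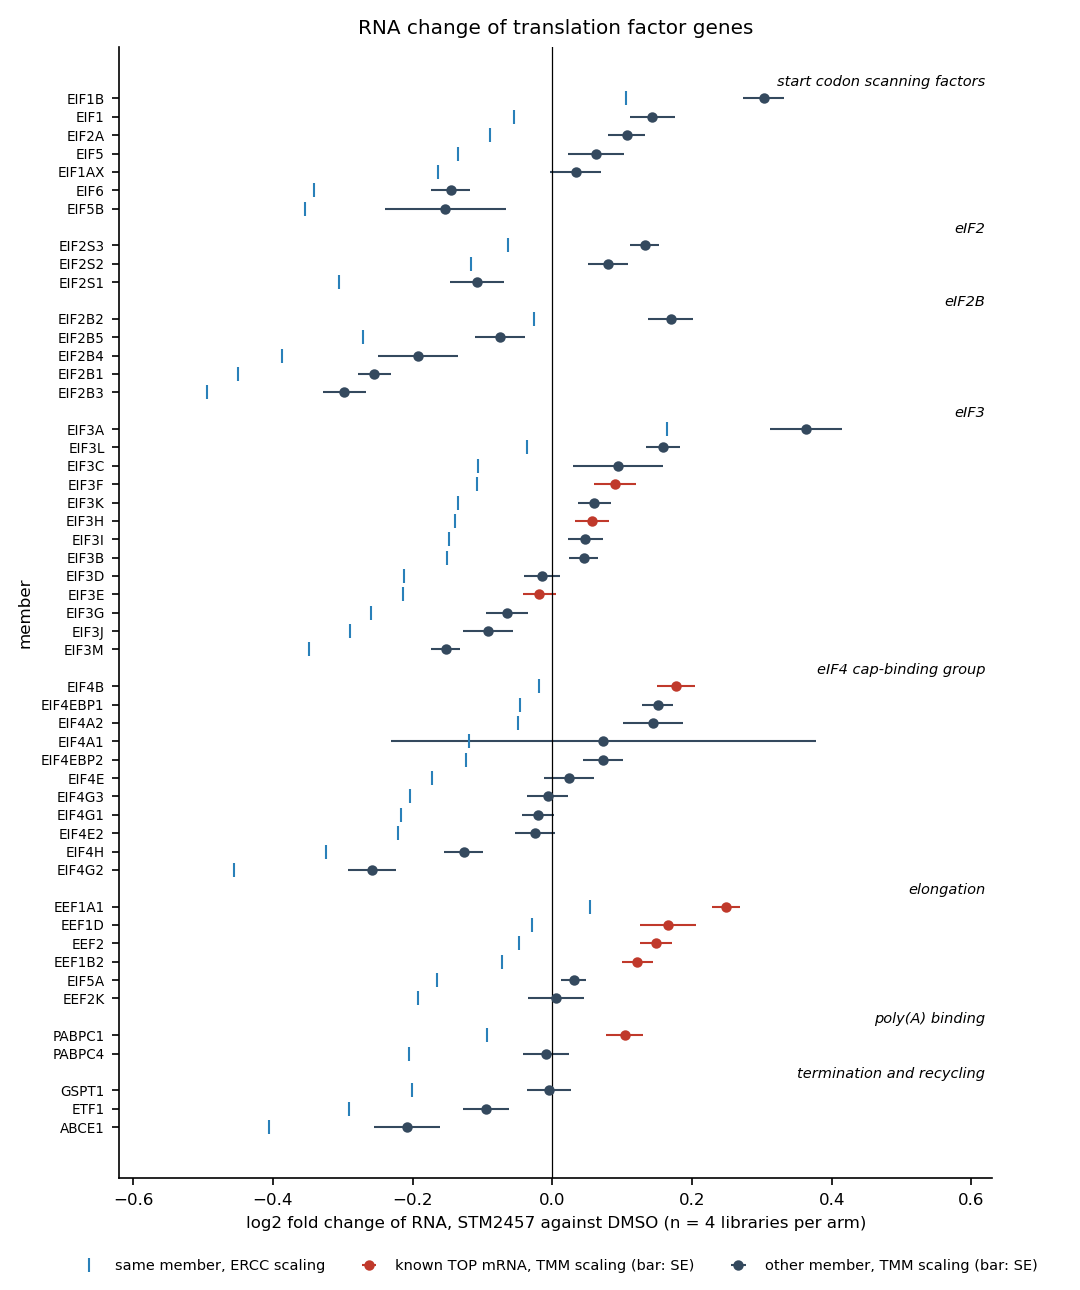
The x axis gives the log2 fold change of RNA (STM2457 against DMSO) of each of the 50 tested members, ordered by role, with dots and SE bars for TMM scaling and blue ticks for spike-in scaling. All red dots (known TOP) except EIF3E lie above 0 with TMM, and with spike-in scaling every tick except those of EIF3A, EIF1B and EEF1A1 lies below 0.

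Elongation factors made up 4 of the 7 TOP members that rose. EEF1A1 (ENSG00000156508.18) was at 3032, 3059.5, 2983 and 2977 CPM with DMSO and at 3651, 3592, 3562 and 3518 CPM with STM2457, a rise from 3013 ± 39.7 to 3581 ± 55.8 CPM (SD, n = 4 per arm, log2 change 0.25, SE 0.020, adjusted p = 4.0e-07). The arms did not overlap, and on the spike-in scale the change was 0.054 and no longer passed the test (adjusted p = 0.413). EEF2 (ENSG00000167658.16), the translocase that moves the ribosome along the mRNA, was at 2908, 2921, 2799 and 2936 CPM with DMSO and at 3294, 3190.4, 3149 and 3184 CPM with STM2457 (log2 change 0.15, SE 0.022, adjusted p = 1.3e-04). Every STM2457 library again exceeded every DMSO library, with a spike-in value of -0.047. EEF1B2 and EEF1D, subunits of the exchange factor that recharges eEF1A, showed the same separation. EEF1B2 was at 446, 445, 450.4 and 440.4 CPM with DMSO and at 482, 488, 496 and 473 CPM with STM2457 (log2 change 0.12, SE 0.022, adjusted p = 4.9e-04, spike-in value -0.072). EEF1D was at 324, 323, 343 and 339 CPM with DMSO and at 354, 354, 401 and 384 CPM with STM2457 (log2 change 0.17, SE 0.040, adjusted p = 0.00438, spike-in value -0.029), so replicates 3 and 4 of EEF1D were above replicates 1 and 2 in both arms. EIF5A and EEF2K, the elongation members outside the TOP list, did not pass the test, at 0.030 and 0.005. Both were called lower with spike-ins, at -0.17 and -0.19.

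PABPC1 (ENSG00000070756.16), the cytoplasmic poly(A)-binding protein, was at 1355, 1385, 1346 and 1328 CPM with DMSO and at 1459, 1495, 1383 and 1482 CPM with STM2457 (log2 change 0.10, SE 0.026, adjusted p = 0.00571, spike-in value -0.093). STM2457 replicate 3 fell just below the highest DMSO library, so the arms of PABPC1 overlapped. EIF4B (ENSG00000063046.17), which stimulates the helicase eIF4A, was at 458, 472, 448 and 450.1 CPM with DMSO and at 531, 529, 496 and 511 CPM with STM2457 (log2 change 0.18, SE 0.027, adjusted p = 1.5e-04, spike-in value -0.019), with no overlap. The 3 TOP members of eIF3 changed least. EIF3F, at 169.7, 175, 174 and 168 CPM with DMSO and at 179.9, 189, 174 and 187 CPM with STM2457, passed the test (log2 change 0.089, SE 0.030, adjusted p = 0.0265, spike-in value -0.11) although its arms overlapped, and the call was lost with DESeq2 (adjusted p = 0.0826). EIF3H was at 227, 224, 219 and 219.9 CPM with DMSO and at 236, 237, 227 and 227 CPM with STM2457 and did not pass (log2 change 0.057, SE 0.024, adjusted p = 0.0727, spike-in value -0.14). EIF3E was at 469.5, 471, 469 and 464 CPM with DMSO and at 469, 477, 450.0 and 453 CPM with STM2457 and did not pass either (log2 change -0.019, SE 0.023, adjusted p = 0.552, spike-in value -0.21). For EIF3E, replicates 3 and 4 lay below replicates 1 and 2 in both arms.

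**Figure D2:**
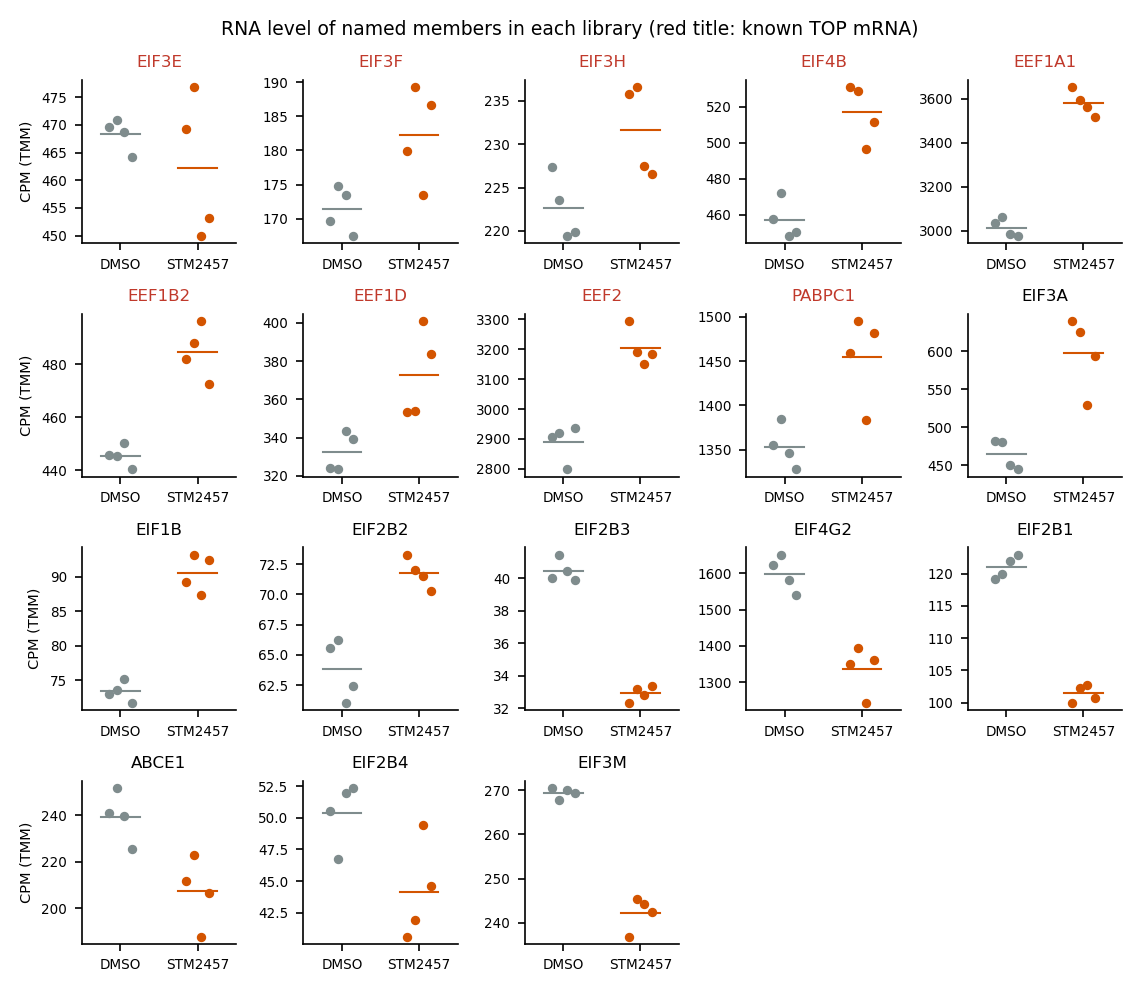
Points are TMM-scaled CPM in each RNA-seq library (left to right replicates 1 to 4) and lines are arm means, for the known TOP members (red titles) and the largest RNA increases and decreases. Each panel has its own y axis, which does not start at 0, and the arms separate in 5 of the 9 TOP panels, where all but EEF1A1 have negative values with spike-in scaling.

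The relation of TOP to other members was then followed library by library. The mean log2 CPM of the 9 TOP members minus that of the 41 others was 1.82, 1.82, 1.81 and 1.80 with DMSO and 1.95, 1.94, 1.95 and 1.91 with STM2457. All 4 STM2457 libraries were above all DMSO libraries, and the arm means differed by 0.12 (pooled SD between libraries 0.0138). The TOP list was chosen with earlier results of these data known, and the libraries may be technical repeats. These values therefore describe these libraries and are not a test. The difference of TOP and other members within a library does not move with its scaling. In single members, every STM2457 library was above every DMSO library in 5 of 9 TOP members and 12 of 41 others, and below in 0 and 7, where 24.9% and 19.8% of all tested genes separated in these ways. Libraries with the replicate numbers 1 and 2 and those numbered 3 and 4 resembled each other across arms, so the counts were repeated within each set. They were 18 higher and 12 lower of 50 members in replicates 1 and 2, beside 4333 and 3602 of all 17924 genes tested. In replicates 3 and 4 they were 14 and 8, beside 3721 and 2770 of all 17960. The gap between TOP and other medians was 0.10 in replicates 1 and 2 and 0.11 in replicates 3 and 4.

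**Figure D3:**
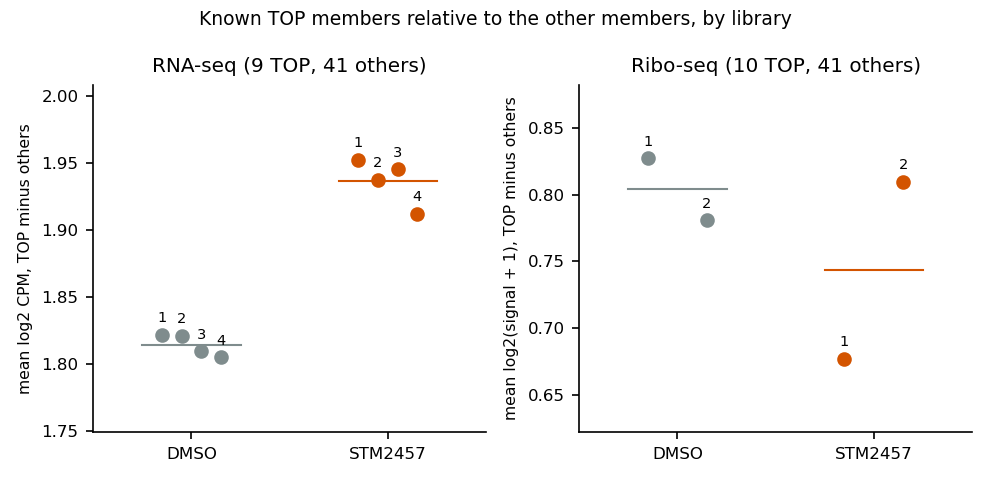
Each numbered point is a library and each line an arm mean of the difference between known TOP and other members, in mean log2 CPM for RNA (left) and mean log2(signal + 1) for footprints (right). The y axes do not start at 0 and span the same range, and the arms separate in RNA but overlap in footprints, where STM2457 replicate 1 is the lowest and replicate 2 lies between the DMSO libraries.

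Within the exchange factor eIF2B, subunits moved in opposite directions on the TMM scale, whereas with spike-ins all 5 were below 0 and 4 were called lower. With TMM, EIF2B1, EIF2B3 and EIF2B4 fell, EIF2B2 rose and EIF2B5 did not pass the test (log2 change -0.075, SE 0.036, adjusted p = 0.107). The spike-in value of EIF2B5 was -0.27 and passed (adjusted p = 1.7e-04). EIF2B3 (ENSG00000070785.16), part of the catalytic arm, was at 40.0, 41.5, 40.4 and 39.9 CPM with DMSO and at 32.3, 33.2, 32.8 and 33.3 CPM with STM2457, a fall from 40.5 ± 0.713 to 32.9 ± 0.455 CPM (SD, n = 4 per arm, log2 change -0.30, SE 0.031, adjusted p = 4.7e-06). EIF2B1, a regulatory subunit, was at 119, 119.9, 122 and 123 CPM with DMSO and at 100.0, 102, 103 and 101 CPM with STM2457 (log2 change -0.25, SE 0.024, adjusted p = 1.8e-06). The arms of both genes were fully separate, and their spike-in values were -0.49 and -0.45. EIF2B4 was at 50.6, 46.7, 52.0 and 52.3 CPM with DMSO and at 40.6, 42.0, 49.4 and 44.6 CPM with STM2457 (log2 change -0.19, SE 0.057, adjusted p = 0.0147, spike-in value -0.39), and its replicate 3 in STM2457 reached into the DMSO range. EIF2B2 was at 65.6, 66.2, 61.0 and 62.5 CPM with DMSO and at 73.3, 72.0, 71.5 and 70.3 CPM with STM2457 (log2 change 0.17, SE 0.032, adjusted p = 8.2e-04), a separation that turned to -0.026 with spike-in scaling (adjusted p = 0.710). Of the subunits of eIF2 itself, EIF2S3 and EIF2S2 rose, by 0.13 and 0.080 (spike-in -0.063 and -0.12), and EIF2S1, the subunit phosphorylated in the stress response, fell by 0.11 (spike-in -0.31).

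The 13 subunits of eIF3, which scaffolds the small subunit, held the largest RNA increase of all members. EIF3A (ENSG00000107581.13) was at 482, 479.9, 450.3 and 445 CPM with DMSO and at 639.6, 625, 529 and 594 CPM with STM2457, from 464 ± 19.5 to 597 ± 49.0 CPM (log2 change 0.36, SE 0.051, adjusted p = 7.2e-05). The lowest STM2457 library, replicate 3, was still above every DMSO library, and EIF3A alone kept a call as higher with spike-in scaling. Altogether 3 of the 13 rose (EIF3A, EIF3F and EIF3L) and 2 fell (EIF3J and EIF3M), and 9 were lower on the spike-in scale. EIF3M was at 270.4, 268, 270.0 and 269 CPM with DMSO and at 237, 245, 244 and 243 CPM with STM2457 (log2 change -0.15, SE 0.021, adjusted p = 6.3e-05, spike-in value -0.35). Its fall was free of overlap, so a member with a pyrimidine tract at its annotated start also fell. EIF3L rose by 0.16 (spike-in value -0.037), and EIF3J, a loosely bound subunit, fell by 0.092 with an adjusted p of 0.0488.

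In the cap-binding group, the largest change was the fall of EIF4G2 (ENSG00000110321.17), a relative of eIF4G that lacks the eIF4E-binding part. EIF4G2 was at 1622, 1651, 1583 and 1541 CPM with DMSO and at 1351, 1394, 1243 and 1360.5 CPM with STM2457 (log2 change -0.26, SE 0.034, adjusted p = 4.3e-05, spike-in value -0.46). All STM2457 libraries were below all DMSO libraries. EIF4H, a helper of eIF4A like EIF4B, fell by 0.13 where EIF4B rose (spike-in value of EIF4H -0.32). EIF4EBP1, the inhibitor that sequesters eIF4E when mTORC1 is off, rose by 0.15, and the helicase EIF4A2 by 0.14, and both turned to -0.045 and -0.049 with spike-ins. The cap-binding protein EIF4E, the scaffolds EIF4G1 and EIF4G3, EIF4E2 and EIF4EBP2 did not pass, with log2 changes between -0.025 and 0.073. With spike-ins all of them were called lower, at -0.17, -0.22, -0.20, -0.22 and -0.12. PABPC4 did not pass either, at -0.009, and was also called lower with spike-ins (-0.20).

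Among the factors of start codon selection and subunit joining, EIF1B (ENSG00000114784.4), a close paralog of the start codon gatekeeper EIF1, rose most. EIF1B was at 73.0, 73.7, 75.2 and 71.7 CPM with DMSO and at 89.2, 93.2, 87.4 and 92.5 CPM with STM2457 (log2 change 0.30, SE 0.029, adjusted p = 2.6e-06), with no overlap, and its spike-in value of 0.11 did not pass (adjusted p = 0.0750). EIF1 and EIF2A also rose, by 0.14 and 0.11 (spike-in -0.054 and -0.090), and EIF6, which keeps free large subunits from joining, fell by 0.15 (spike-in -0.34). EIF5B, the GTPase of subunit joining, had -0.15 with an SE of 0.086 and did not pass, but was called lower with spike-ins (-0.35). Its replicates 3 and 4 spanned 159 to 199 CPM over both arms, below the 212 to 238 CPM of replicates 1 and 2. Of the termination and recycling factors, ABCE1 (ENSG00000164163.11) was at 241, 252, 239.7 and 225 CPM with DMSO and at 211, 223, 188 and 207 CPM with STM2457 (log2 change -0.21, SE 0.047, adjusted p = 0.00274, spike-in value -0.41), so the ribosome splitting factor was lower in every STM2457 library. The release factor ETF1, which is eRF1, fell by 0.095 (spike-in value -0.29). Its partner GSPT1, which is eRF3, had -0.005 and did not pass, but was called lower with spike-ins (-0.20).

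The count files and the efficiency table differed in their RNA values for EEF1G and EIF4A1. EEF1G, a subunit of the eEF1 complex, had 0 counts in all 8 count files. The table gave it a normalized RNA signal of 36283, 36594, 35425 and 35944 in DMSO and 39289, 39385, 39979 and 39288 in STM2457, a log2 difference of 0.13 (SE 0.019). Its RNA therefore entered only the efficiency fit and the fit of the table's own RNA signals. EIF4A1, the main eIF4A helicase, had 221, 186, 321 and 414 counts in DMSO and 187, 174, 386 and 354 in STM2457, with the CPM of replicates 3 and 4 above that of replicates 1 and 2 by 1.03 on the log2 scale, while the table listed RNA signals from 25515 to 28561. EIF3C had about 11.6 CPM in DMSO, and its near-identical copy EIF3CL can share its reads. The RNA values of EIF4A1 and EIF3C are therefore uncertain, and what sets these counts was not tested. EEF1A1, PABPC1 and other abundant members also have processed pseudogenes that resemble them, and how the authors' counting assigned shared reads is not given in the sources used here. Over the table's own RNA signals the median difference was 0.069 for TOP and -0.047 for the others, against -0.041 for all genes tested. In those signals 12 members were higher and 21 lower with limma at an adjusted p under 0.05, beside 27.4% higher and 34.6% lower of all genes in the table that were tested, whereas the counts with TMM scaling gave 17 higher and 11 lower. Of the TOP members 6 were higher and 1, EIF3E, lower.

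Ribosome footprints of the members changed little, and the TOP members did not share the rise of their RNA. On log2(signal + 1), 4 of the 51 members were higher (EIF1B, EIF2B2, EIF5A and EIF3A) and 4 lower (EIF3C, EIF2B3, EIF3H and EIF3G) with limma at an adjusted p under 0.05, beside 9.59% higher and 6.13% lower of all 10906 genes tested. The members' shares, 7.84% each way, are near this background. With 2 libraries per arm these calls were fragile: each of the 8 was lost when at least 1 of the 4 libraries was left out, and none passed without a mean-variance trend in the fit, where 168 and 64 genes passed in all. The calls that held were EIF1B without DMSO replicate 1, EIF2B3 without DMSO replicate 2, EIF2B3, EIF3C, EIF3G and EIF3H without STM2457 replicate 1, and EIF1B, EIF3A, EIF3H and EIF5A without STM2457 replicate 2. The median change was -0.12 for the 10 TOP members and -0.11 for the 41 others, against -0.025 for all genes. The TOP median moved with the library left out: it was -0.035 without STM2457 replicate 1 and -0.19 without STM2457 replicate 2, where the others' median was -0.067 and -0.062. All 10 TOP values were below 0, as were 26 of the 41 others, but only EIF3H of the TOP members passed the test. The mean difference of TOP and other members was 0.827 and 0.781 in DMSO and 0.677 and 0.810 in STM2457, so the arms overlapped.

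EIF1B had footprint signals of 1191 and 964 with DMSO and 1451 and 1335 with STM2457 (log2 change 0.38, SE 0.13, adjusted p = 0.0358), from 370 and 200 and from 382 and 342 reads. EIF2B2 had 1764 and 1764 with DMSO and 2142 and 2226 with STM2457 (log2 change 0.31, SE 0.11, adjusted p = 0.0455). EIF3A had 13605 and 13726 with DMSO and 16802 and 15294 with STM2457 (log2 change 0.23, SE 0.079, adjusted p = 0.0357). These 3 were also called higher in RNA on the TMM scale. EIF5A, which helps ribosomes through stalling motifs, had 9208 and 8251 with DMSO and 11143 and 9683 with STM2457 (log2 change 0.25, SE 0.085, adjusted p = 0.0327). Its RNA did not pass the test on the TMM scale and was called lower with spike-ins (-0.17).

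On the lower side, EIF2B3 had footprint signals of 1345 and 1176 with DMSO and 972 and 828 with STM2457 (log2 change -0.49, SE 0.13, adjusted p = 0.00718). It is the only member called lower in both RNA and footprints with TMM scaling, whereas with spike-ins EIF3H and EIF3G were too. EIF3H had 5755 and 6005 with DMSO and 4831 and 4806 with STM2457 (log2 change -0.29, SE 0.089, adjusted p = 0.0190). EIF3G, an RNA-binding subunit of eIF3, had 6273 and 5991 with DMSO and 5260.2 and 5029 with STM2457 (log2 change -0.25, SE 0.088, adjusted p = 0.0406). The arms of all 3 were separate. EIF3C, the eIF3 subunit of uncertain counts, had 270.4 and 279.5 with DMSO and 159.5 and 141 with STM2457 (log2 change -0.87, SE 0.26, adjusted p = 0.0128), resting on 84 and 58 reads in DMSO and 42 and 36 in STM2457. EIF2B4 and EIF2B1, which fell in RNA, had footprint changes of -0.32 and -0.25 that did not pass (adjusted p = 0.0677 and 0.130). No member was called in opposite directions in RNA and footprints on the TMM scale, whereas with spike-ins EIF5A was. Across the 50 members tested in both, RNA and footprint changes had a Pearson correlation of 0.447 and a Spearman correlation of 0.499, as a description over genes from separate RNA-seq and Ribo-seq libraries. The signs matched in 31 of 41 others but in 1 of 9 TOP members, on the TMM scale for RNA. This contrast depended on the scale. With spike-ins, RNA changes were below 0 in 8 of 9 TOP members and 39 of 41 others. Footprint changes were below 0 in 10 of 10 TOP members and 26 of 41 others.

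**Figure D4:**
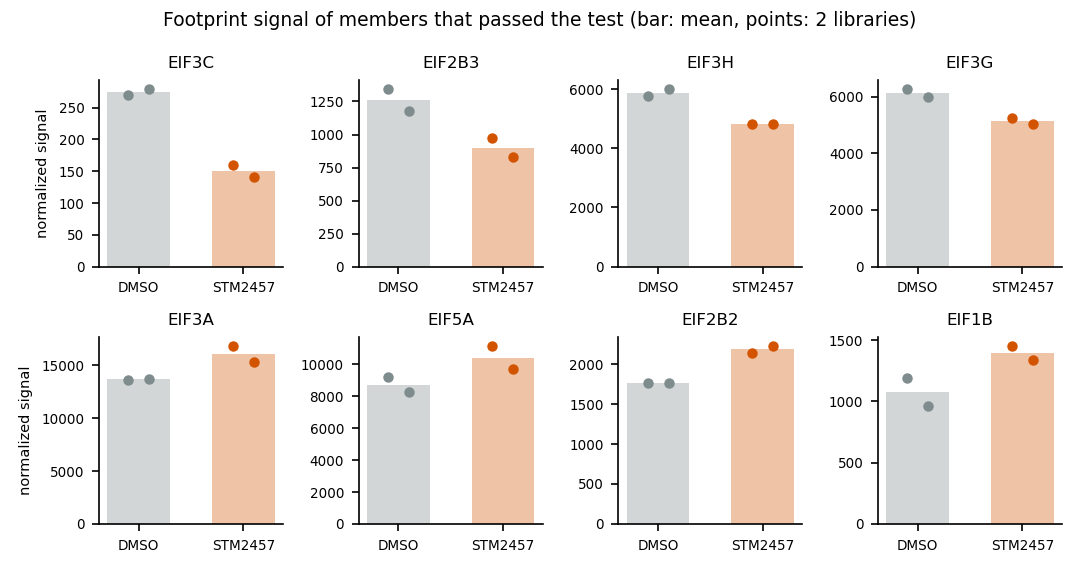
Bars are arm means and points the 2 Ribo-seq libraries of normalized footprint signal, for the 8 members that passed the footprint test. The 2 points of each arm lie on the same side of both points of the other arm in every panel, and each panel has its own y axis from 0.

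Among the TOP members that rose in RNA, none passed the footprint test. EEF1A1 had footprint signals of 3727 and 3726 with DMSO and 3836 and 3174 with STM2457 (log2 change -0.095, SE 0.10, adjusted p = 0.594). EEF2 had 92909.5 and 88941 with DMSO and 81809 and 91422 with STM2457 (log2 change -0.072, SE 0.070, adjusted p = 0.564). EIF4B had 1307 and 1335 with DMSO and 1132 and 1187 with STM2457 (log2 change -0.19, SE 0.12, adjusted p = 0.351). Only the arms of EIF4B were separate among these 3. EEF1B2 had 2349.5 and 2169 with DMSO and 2115 and 2265 with STM2457 (log2 change -0.045, SE 0.11, adjusted p = 0.845). EEF1D had 4358 and 4193 with DMSO and 3809 and 4299 with STM2457 (log2 change -0.079, SE 0.094, adjusted p = 0.652). PABPC1 had 6592 and 6155 with DMSO and 6384 and 6317 with STM2457 (log2 change -0.004, SE 0.087, adjusted p = 0.983). In these 3 the arms overlapped and the changes were smaller than their errors. EIF3F had 2256 and 2048 with DMSO and 1679 and 2222 with STM2457 (log2 change -0.15, SE 0.12, adjusted p = 0.419). EIF3E had 9926 and 12184 with DMSO and 9043 and 10085 with STM2457 (log2 change -0.20, SE 0.087, adjusted p = 0.109). EEF1G had 6324 and 5345 with DMSO and 4311 and 5587 with STM2457 (log2 change -0.24, SE 0.10, adjusted p = 0.0856). The lowest of the 4 libraries was STM2457 replicate 1 for EIF3F, EIF3E and EEF1G, and STM2457 replicate 2 for EEF1A1.

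Translational efficiency, the footprint signal over the RNA signal, passed the test in no member. With limma's interaction of assay and treatment and a weight per assay, 0 of 51 members were higher and 0 lower at an adjusted p under 0.05. Of all genes, 0.229% were higher and 0.807% lower at that threshold. Before adjustment, 7 members had a p under 0.05 (EIF5A higher, and EIF4B, EIF3L, EIF3H, EEF1A1, EIF3C and EEF1G lower). The share of all genes under this looser threshold was not counted, so these 7 are not a result about the members. With 1 spread shared by both assays, 1 member was higher (EIF5A) and 5 lower (EIF4B, EIF3L, EIF3H, EEF1A1 and EIF3C), beside 3.11% higher and 4.46% lower of all genes. An edgeR interaction on counts and recovered reads gave 0 higher and the same 5 lower, beside 1.14% and 2.76%. All 10 TOP members had values below 0, from -0.38 to -0.034, whereas 21 of the 41 others were below 0 and 20 above. The median was -0.19 for TOP, -0.002 for the others and 0.006 for all genes. The size of the TOP median depended on the Ribo-seq library: it was -0.065 without STM2457 replicate 1 and -0.23 without STM2457 replicate 2. In the authors' deposited table the change was likewise below 0 for 10 of 10 TOP members and 21 of 41 others, with medians of -0.17 and -0.003, computed from these same libraries.

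**Figure D5:**
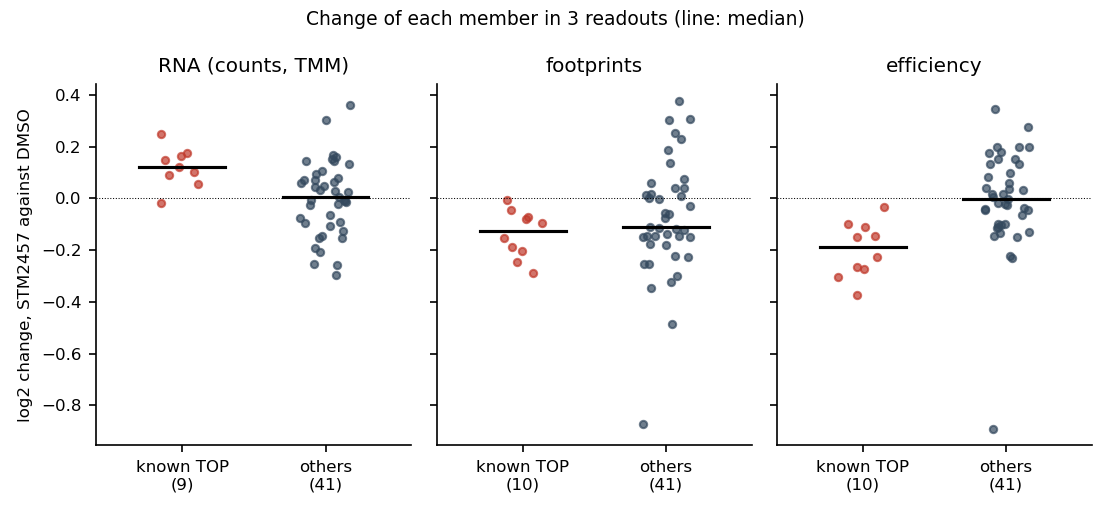
Each point is 1 member's log2 change (STM2457 against DMSO) in RNA counts with TMM scaling, footprint signal or efficiency, and the black line is the median, for known TOP members (red) and others (dark). The TOP median lies above that of the others in RNA, where it turns negative with spike-in scaling, close to it in footprints and below it in efficiency, where no member passed the test.

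Per library, with each footprint signal divided by the arm's mean RNA signal, EIF4B stood at 0.1867 and 0.1907 in DMSO and 0.1491 and 0.1563 in STM2457, a log2 change of -0.31 (SE 0.10, 95% interval -0.52 to -0.090, adjusted p = 0.243). EIF3H stood at 1.156 and 1.206 in DMSO and 0.9846 and 0.9795 in STM2457, a change of -0.27 (SE 0.084, 95% interval -0.44 to -0.087, adjusted p = 0.207). For both, the arms were separate, as they were in footprints. EEF1A1 stood at 0.05004 and 0.05002 in DMSO and 0.04557 and 0.03771 in STM2457, a change of -0.27 (SE 0.088, 95% interval -0.46 to -0.085, adjusted p = 0.221). EEF1G stood at 0.1754 and 0.1482 in DMSO and 0.1092 and 0.1415 in STM2457, a change of -0.38 (SE 0.11, 95% interval -0.61 to -0.14, adjusted p = 0.149). The lowest library was STM2457 replicate 2 for EEF1A1 and STM2457 replicate 1 for EEF1G. All STM2457 values of both were below all DMSO values, but their footprint arms overlapped. Division by 1 mean RNA signal per arm shifts a whole arm and carries no RNA spread, so this order is not a separation of replicates. PABPC1, the TOP member nearest to 0, had -0.034 (SE 0.10, 95% interval -0.25 to 0.18, adjusted p = 0.973). The remaining TOP members EIF3F, EEF2, EEF1D, EIF3E and EEF1B2 had -0.23, -0.15, -0.15, -0.11 and -0.098. Their 95% intervals all included 0. Of the members outside the TOP list, EIF5A had 0.28 (SE 0.10, 95% interval 0.070 to 0.48, adjusted p = 0.291), and EIF3C, with few reads, had -0.89 (SE 0.24, 95% interval -1.39 to -0.39, adjusted p = 0.0947). The eIF3 subunits, TOP or not, were mostly negative, with 11 of 13 below 0 and a median of -0.11, and the medians of the other roles ran from -0.15 in elongation to 0.036 in eIF2B.

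Translation factors outside the 51 included a larger change than any member. Of 20 such genes tested in RNA, 5 rose and 4 fell on the TMM scale, beside 26.2% and 21.6% of all genes. With spike-ins 1 was higher and 12 lower, beside 12.1% and 47.1% of all genes. PELO, which rescues stalled ribosomes together with HBS1L, went up from 36.2 ± 1.52 to 73.3 ± 1.47 CPM (SD, n = 4 per arm, log2 change 1.02, SE 0.035, adjusted p = 2.3e-10, spike-in value 0.82). Its footprints rose as well (log2 change 1.40, SE 0.12, adjusted p = 7.4e-14). MCTS1, a recycling and reinitiation factor, fell from 117 ± 2.75 to 93.2 ± 1.47 CPM (SD, n = 4 per arm, log2 change -0.32, SE 0.026, adjusted p = 5.1e-07, spike-in value -0.52), and in footprints (log2 change -0.37, SE 0.12, adjusted p = 0.0240). EEFSEC, the elongation factor for selenocysteine, and ABCF1 rose by 0.23 and 0.19 (spike-in 0.037 and -0.007). Altogether 1 of the 20 genes tested in footprints was higher and 2 were lower, the third being the helicase DDX3X (-0.26). Of all genes, 9.59% were higher and 6.13% lower in footprints. None of the 20 passed in efficiency.

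Of 17 genes of mTORC1 and TOP mRNA control, 6 rose and 5 fell in RNA, beside 26.2% and 21.6% of all genes. With spike-ins 2 were higher and 10 lower, beside 12.1% and 47.1% of all genes. TSC1, an inhibitor of mTORC1, went up from 60.2 ± 1.01 to 97.2 ± 3.08 CPM (SD, n = 4 per arm, log2 change 0.69, SE 0.030, adjusted p = 1.4e-09, spike-in value 0.49), and RPTOR, the mTORC1 subunit that binds its substrates, from 79.9 ± 1.20 to 102 ± 0.934 CPM (SD, n = 4 per arm, log2 change 0.36, SE 0.024, adjusted p = 9.0e-08, spike-in value 0.16). RPS6KB1, a kinase downstream of mTORC1, rose by 0.28 (spike-in 0.078), and the subunit MLST8 fell by 0.20 (spike-in -0.39). In footprints TSC1 (log2 change 0.51, SE 0.15, adjusted p = 0.0152) and DEPTOR, another inhibitor of mTORC1 (log2 change 1.27, SE 0.36, adjusted p = 0.00832), were higher and none was lower. Of all genes, 9.59% were higher and 6.13% lower in footprints. None of the 17 passed in efficiency. Inhibitors and activators of mTORC1 thus both stood among the genes that rose. The cytosolic ribosomal proteins, a TOP class outside the members, had 76 of 79 higher and 0 lower in RNA (median 0.18), but 0 higher and 3 lower with spike-ins. Their footprints were higher in 2 and lower in 9 of 70, beside the same 9.59% and 6.13%. Their efficiency was higher in 1 and lower in 5 of 70, beside 0.229% and 0.807% of all genes. The median efficiency change was -0.19 beside -0.19 for the TOP members.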

How the data were processed

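RNA was measured in 8 poly(A) RNA-seq libraries and footprints in 4 Ribo-seq libraries. The RNA files hold the authors' read counts per gene. The series table holds the authors' normalized signal per library, the ratio of mean footprint to mean RNA signal as efficiency, and its log2 change, per the file headers. Per the submitters' processing notes, reads were handled against GRCh38.p12 with tools that include UMI-tools 1.1.2, STAR 2.7.3a and featureCounts of Subread 2.0.3, in no stated order.

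For RNA, the quasi-likelihood test of edgeR 4.0.16 (R 4.3.3) was run after filterByExpr with TMM factors and without spike-in rows. Footprints and efficiency were tested with limma 3.58.1 on log2(signal + 1), which understates changes of low genes, for genes averaging 10 or more recovered footprint reads per library, where 100.0% of the footprint values lay within 0.1 of a whole read in each library. A mean-variance trend, which the design had not named, was used in both limma fits after the calls of the fit without it had been seen. All p-values were Benjamini-Hochberg adjusted over all genes tested. The SE of an edgeR change is its size divided by the root of F. The fits were also run on simulated data with a fixed spread and no replicate sets, and the outcome is not given here.

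The members, the TOP list and the other lists were chosen with earlier results of these data known. Values per library are given in RNA and footprints for every known TOP member. In efficiency they are given only for EIF4B, EIF3H, EEF1A1 and EEF1G, the TOP members with an unadjusted p under 0.05. They are also given for the 6 largest called RNA increases and decreases, for up to 5 called in each direction in footprints and efficiency, and for members called in opposite directions. From each other list 4 genes are named by smallest p. Ribosomal proteins are given as a group. DESeq2 1.42.0, spike-in scaling, other filters, pseudocounts and left-out libraries were tried as alternatives. Footprints per codon were not computed.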

Additional observations from a re-analysis of the deposited data

How the results depend on the processing

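RNA directions depended on the scaling: with spike-ins 1 member was higher and 31 lower, and the log2 change turned to -0.1077 for EIF3F, -0.1386 for EIF3H, -0.01861 for EIF4B, -0.07247 for EEF1B2, -0.02867 for EEF1D, -0.04702 for EEF2, -0.09297 for PABPC1 and -0.02616 for EIF2B2. Over the left-out libraries the members higher in RNA numbered 15 to 20 and those lower 8 to 11. Of all 18002 to 18066 genes tested, 4346 to 4767 were higher and 3431 to 3880 lower. The gap of TOP and other medians in RNA ran from 0.1063 to 0.1447, against 0.1389 with the wider TOP list. Footprint calls numbered 0 higher and 0 lower without the mean-variance trend, and the trend itself was adopted after the calls of that fit had been seen. The footprint gap ran from -0.1322 to 0.03219 over the left-out libraries. In efficiency 1 member was higher and 5 lower with a shared spread, 5 lower with the edgeR interaction, and 0 to 1 lower over the left-out libraries, where the gap ran from -0.2584 to -0.05889. When TOP was defined by the annotated start among the 41 members with a RefSeq start, a definition added after seeing the data, the efficiency gap was -0.1248. The cause of these shifts was not tested.

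With a replicate block, members called numbered 22 higher and 14 lower in RNA, 2 and 3 in footprints and 0 and 0 in efficiency. Of all genes tested, 5094 and 4448 of 17807, 1059 and 660 of 10906, and 21 and 97 of 10906 were called in these readouts. Deviations of same-numbered libraries correlated at 0.114, 0.184, 0.124 and 0.0721 in RNA and 0.00642 in Ribo-seq, and not every library correlated best with its own number, so the numbers were not taken as pairs. For the named members, 230 RNA, 147 footprint and 175 efficiency values over all alternatives kept their direction and side of the threshold. A call was lost in 18, 35 and 0 values, 7 of them RNA values that also turned with spike-ins, and gained in 4, 5 and 11. Depth and the spread between the 2 Ribo-seq libraries per arm were not separated as limits on the footprint calls.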
